A study of Mus musculus with 11 samples.

Results

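The 5 genes described here, Wfdc21, Wfdc17, Slpi, Wfdc2 and Wfdc15b, encode small secreted proteins of the whey acidic protein (WAP) family and were taken by name from a table of 31280 genes. They were measured in the livers of wild-type C57BL/6 mice fed a methionine- and choline-deficient (MCD) diet for 8 weeks, a diet that produces fatty, inflamed and scarred livers in mice. In the MCD group, 5 mice received water by gavage. In the limonin group, 6 mice on the same diet were gavaged for 4 weeks with 100 mg/kg of limonin, a triterpenoid that makes citrus fruit bitter. The age of the mice was not given, livers of mice on a full diet were not analysed here, and so each difference is between limonin and water under 1 shared diet. The 5 genes were chosen from their values in this same comparison. Their differences between the groups are therefore a description, and the counts of calls among them support nothing further.

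The WAP domain, also called a four-disulfide core, is a short fold held together by disulfide bonds between its cysteines. Proteins built from it include inhibitors of the serine proteases that neutrophils release, and several of them kill or restrain bacteria and damp inflammatory signalling in macrophages. They are made mainly by epithelia, such as those of the airway and the reproductive tract, and by activated myeloid cells. In the liver, secreted defence proteins come largely from hepatocytes as part of the acute phase response, in which cytokines such as interleukin-6 raise the output of plasma proteins through the transcription factors STAT3 and C/EBP.

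The coding sequences are shown because they set Wfdc21, the only 1 of the 5 with higher values in every limonin liver, apart from the other 4. In GENCODE M21 on GRCm38, Wfdc21 lies at chr11:83746940-83752642 on the plus strand, with 3 exons, of which 2 are coding. Its coding sequence of 189 bases without the stop codon is printed whole, 5′ to 3′, with its 6 cysteine codons in capitals.
Wfdc21 coding sequence: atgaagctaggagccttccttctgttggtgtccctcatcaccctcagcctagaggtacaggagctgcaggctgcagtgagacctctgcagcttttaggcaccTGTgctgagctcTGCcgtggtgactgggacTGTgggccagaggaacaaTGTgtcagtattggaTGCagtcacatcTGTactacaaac
The cores of the other 4 genes follow, read on the coding strand from the first to the last of their 8 cysteine codons, again in capitals. The core of Wfdc17 lies at chr11:83704814-83704924 (plus strand), the second core of Slpi at chr2:164354892-164355005 (minus strand), the second core of Wfdc2 at chr2:164565806-164565919 (plus strand) and the core of Wfdc15b at chr2:164215141-164215251 (minus strand).
Wfdc17 core: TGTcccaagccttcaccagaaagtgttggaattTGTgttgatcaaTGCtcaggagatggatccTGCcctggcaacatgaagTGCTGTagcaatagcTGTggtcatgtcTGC
Slpi core 2: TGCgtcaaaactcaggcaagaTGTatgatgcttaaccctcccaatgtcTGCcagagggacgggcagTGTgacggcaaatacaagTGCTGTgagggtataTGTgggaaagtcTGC
Wfdc2 core 2: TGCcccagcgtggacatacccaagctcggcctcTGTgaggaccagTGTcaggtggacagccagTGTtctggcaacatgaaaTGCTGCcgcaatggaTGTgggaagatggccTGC
Wfdc15b core: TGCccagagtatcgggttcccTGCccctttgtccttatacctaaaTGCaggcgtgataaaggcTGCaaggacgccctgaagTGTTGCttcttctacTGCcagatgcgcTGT
The cores were found by searching the coding sequences for 8 cysteine codons at a set spacing, which they therefore share by construction. That spacing has 5 codons between the third and the fourth cysteine codon and 5 more before the fifth, which is followed at once by the sixth. The 4 printed cores also have 3 codons before the seventh, where the search allowed 3 to 5. The search found 2 cores each in Slpi and Wfdc2 and 1 each in Wfdc17 and Wfdc15b. It found 0 cores in Wfdc21, whose cysteine codons are 3, 5, 5, 4 and 3 codons apart and include no adjacent pair.

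The genes sit in 2 groups in the genome. Wfdc17 (chr11:83703991-83706268, plus strand) and Wfdc21 lie 40.7 kb apart on chromosome 11, with Wfdc18 between them. Wfdc15b (chr2:164214454-164221660, minus strand), Slpi (chr2:164354070-164389095, minus strand) and Wfdc2 (chr2:164562413-164568510, plus strand) span 354 kb on chromosome 2. The coding sequences of Wfdc21 and Wfdc17 were 49.4% identical in a global alignment, and the longest run of bases they shared was 8. Wfdc17 and Wfdc18 were 79.4% identical with a shared run of 20 bases. Whether the authors' counting could divide reads between Wfdc17 and Wfdc18 was not given in the sources used here.

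Expression was given in FPKM, that is, fragments scaled by transcript length and sequencing depth. In what follows, ± beside FPKM is the SD over 5 MCD or 6 limonin livers, and ± beside a log2 fold change of FPKM + 1 is its standard error. The steps between low values implied 15520000 to 19630000 fragments per library, and 9742 to 11087 genes per library reached 1 FPKM. Spermatid markers (Prm1, Prm2, Tnp1, Tnp2 and Odf1), which liver cells do not make, summed to 0 FPKM in MCD 4 and MCD 5, to between 12.6 and 20.8 in the other MCD libraries, and to between 12.7 and 98.2 in the limonin libraries, with 73.9 in limonin 5 and 98.2 in limonin 6. Values without both MCD 4 and MCD 5, or without both limonin 5 and limonin 6, are therefore also given for the 5 genes where this changed a call. Of 10489 genes tested, 7.24% were called higher and 18.7% lower in the limonin group, using limma with a Benjamini-Hochberg adjusted p under 0.05, and the median log2 fold change was -0.07. The balance of calls depended on scaling: 27.9% of them were higher as deposited and 57.4% after median-ratio scaling, which moved the median log2 fold change to 0.05.

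Wfdc21 was higher in every limonin liver and the other 4 genes had lower means there. Of the 4 members that were tested, 1 was called higher (Wfdc21), 2 lower (Slpi and Wfdc2) and 1 not called (Wfdc17). Wfdc15b was not tested, because only 4 libraries reached 1 FPKM. The limonin and MCD values did not overlap for Wfdc21 and Wfdc15b. Across all tested genes, 2.97% had every limonin library above every MCD library and 8.33% had every limonin library below. Because this contrast chose the genes, nothing is read from these counts.

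**Figure D1:**
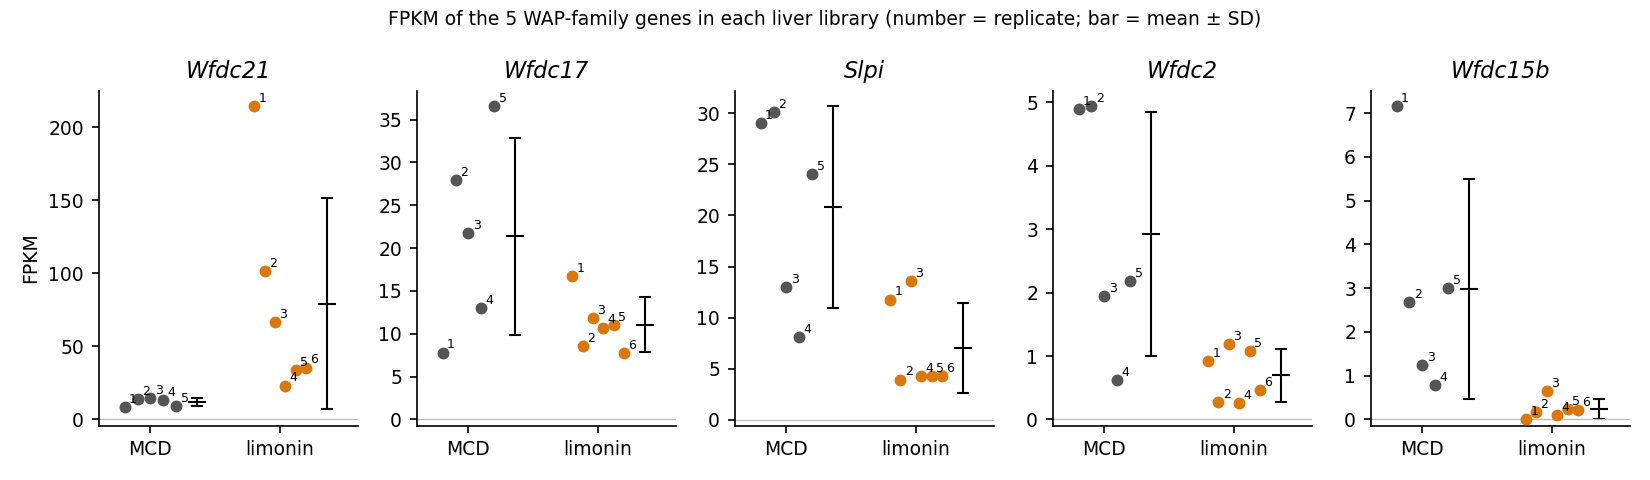
FPKM (linear axes, a separate scale for each gene) of the 5 genes in each library, with 1 point per mouse numbered by replicate and a bar for mean ± SD (MCD n = 5, limonin n = 6). Wfdc21 lies between 23.2 and 215 FPKM in the limonin group, above the MCD range of 8.22 to 14.6, whereas Wfdc15b is at or below 0.654 FPKM in the limonin group and at or above 0.789 in the MCD group.

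Wfdc21 encodes a secreted peptide, also known as Wdnm1-like, that has been described as antimicrobial. It measured 8.22, 13.95, 14.6, 13.4 and 8.97 FPKM in MCD 1 to 5. It measured 215, 102, 66.4, 23.2, 33.8 and 35.5 FPKM in limonin 1 to 6. The lowest limonin liver thus lay above the highest MCD liver, and the limonin livers spread from 23.2 in limonin 4 to 215 in limonin 1. The means were 11.8 ± 2.99 FPKM (SD, n = 5) and 79.3 ± 72.4 (SD, n = 6), a ratio of 6.71. The log2 fold change of FPKM + 1 was 2.26 ± 0.52 (SE), with a 95% interval from 1.11 to 3.41. It was the second largest increase among the tested genes (rank 2 of 10489). Without both MCD 4 and MCD 5 the call was lost at a log2 fold change of 2.21.

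The spread of Wfdc21 among limonin livers was wide beside that of most tested genes with a mean of at least 10 FPKM. Its coefficient of variation (SD as a percentage of the mean) was 91.3% in the limonin group and 25.3% in the MCD group. The highest limonin value was 9.27 times the lowest, against 1.78 times in the MCD group. Of 3304 tested genes with a mean of at least 10 FPKM, 21 (0.636%) had a larger coefficient of variation in the limonin group, where the median gene had 15.9%. In the MCD group 286 (8.66%) had a larger one, and the median gene had 10.4%. Wide spread was not particular to Wfdc21. For Slpi, 1.48% of these genes had a larger one in the limonin group and 2.12% in the MCD group. For Wfdc17 these shares were 11.8% and 1.57%. The transcript of 434 bases carried an implied 66 to 115 fragments per MCD library and 192 to 1806 per limonin library. Each limonin value thus rested on at least 192 fragments.

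Slpi, secretory leukocyte protease inhibitor, blocks neutrophil elastase and cathepsin G. It measured 29.1, 30.1, 13.0, 8.04 and 24.03 FPKM in MCD 1 to 5. It measured 11.8, 3.91, 13.6, 4.24, 4.29 and 4.23 FPKM in limonin 1 to 6. Limonin 2, 4, 5 and 6 lay below every MCD liver, while limonin 1 and 3 fell within the MCD range, so the groups overlapped. The means were 20.9 ± 9.87 FPKM (SD, n = 5) and 7.01 ± 4.44 (SD, n = 6), with a log2 fold change of -1.46 ± 0.42 (SE). The call was lost when any of MCD 1, MCD 2, MCD 5, limonin 2, limonin 4 or limonin 6 was left out, with log2 fold changes between -1.38 and -1.30, and without both limonin 5 and limonin 6 (-1.24). Its 2 annotated transcripts carried an implied 134 to 501 fragments in MCD libraries and 65 to 234 in limonin libraries.

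Wfdc2, known in humans as HE4, is a secreted protein of epithelia with 2 WAP domains. It measured 4.90, 4.94, 1.95, 0.617 and 2.18 FPKM in MCD 1 to 5. It measured 0.915, 0.269, 1.19, 0.261, 1.07 and 0.456 FPKM in limonin 1 to 6. Only MCD 4 came down among the limonin livers, and 3 limonin livers lay below it. The means were 2.92 ± 1.92 FPKM (SD, n = 5) and 0.695 ± 0.416 (SD, n = 6), with a log2 fold change of -1.09 ± 0.32 (SE). Wfdc2 reached 1 FPKM in 6 libraries, 4 of them MCD, and so passed the filter mainly through the group in which it was higher. The call was lost when any of MCD 1, MCD 2, limonin 2, limonin 4 or limonin 6 was left out, with log2 fold changes between -1.05 and -0.90, and without both limonin 5 and limonin 6 (-1.12). An implied 4 to 20 fragments lay behind the limonin values, which limits their precision.

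Wfdc15b, also called SWAM1, is a single-domain WAP protein described as antibacterial. It measured 7.16, 2.69, 1.24, 0.789 and 3.01 FPKM in MCD 1 to 5. In limonin 1 it was listed at 0, where 3 fragments would give 0.271 FPKM, and limonin 2 to 6 measured 0.176, 0.654, 0.0917, 0.235 and 0.219 FPKM. The 6 limonin livers lay below the lowest MCD liver, MCD 4. The means were 2.97 ± 2.52 FPKM (SD, n = 5) and 0.229 ± 0.226 (SD, n = 6), the MCD mean being 13.0 times the limonin mean. An implied 157 fragments in all lay behind the MCD values and 14 behind the limonin values, so the size of the ratio is imprecise. On the log2(FPKM + 1) scale, which compresses values this low, the difference of means was -1.50. When the filter was dropped, Wfdc15b was called lower at -1.50 ± 0.33, in a fit that called 5.68% of 31280 genes lower and 1.32% higher and in which Slpi and Wfdc2 were not called.

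Wfdc17, also known as AMWAP, is made by activated macrophages and microglia. It measured 7.80, 27.9, 21.7, 13.0 and 36.6 FPKM in MCD 1 to 5. It measured 16.7, 8.56, 11.8, 10.7, 10.97 and 7.69 FPKM in limonin 1 to 6. The groups overlapped widely, with 5 of 6 limonin livers inside the MCD range, and the MCD livers were more scattered (coefficient of variation 53.7% against 28.6%). The means were 21.4 ± 11.5 FPKM (SD, n = 5) and 11.1 ± 3.17 (SD, n = 6), with a log2 fold change of -0.75 ± 0.34 (SE), which was not called. MCD 1, the lowest MCD liver, bore on this: without it the log2 fold change was -1.04 and the gene was called lower.

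In the authors' deposited table, Wfdc21 was marked up with a fold change of 6.71, and Wfdc15b, Wfdc2 and Slpi were marked down with log2 fold changes of -3.70, -2.07 and -1.57. Wfdc17 was not marked in the authors' deposited table, which gives it a log2 fold change of -0.95. These log2 values are taken from the ratio of group means without a pseudocount, whereas limma compared means of log2(FPKM + 1). They are larger in size, most for the low genes Wfdc15b and Wfdc2. For Wfdc21 the authors' log2 value was 2.75, against 2.26 with a pseudocount of 1 and 2.35 with 0.01.

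By mean level per transcript length, the order in the MCD group was Wfdc17 (21.4 FPKM), Slpi (20.9), Wfdc21 (11.8), Wfdc15b (2.97) and Wfdc2 (2.92). In the limonin group it was Wfdc21 (79.3 FPKM), Wfdc17 (11.1), Slpi (7.01), Wfdc2 (0.695) and Wfdc15b (0.229). The ranges of Wfdc17, Slpi and Wfdc21 overlapped in the MCD group, where Wfdc21 lay above Wfdc17 in MCD 1 and MCD 4 and above Slpi in MCD 3 and MCD 4. The ranges of Wfdc17 and Slpi also overlapped in the limonin group, as did those of Wfdc2 and Wfdc15b in both groups, so the order of these neighbours lies within their spread. Within the limonin group the lowest Wfdc21 value (23.2) was above the highest value of Wfdc17 (16.7).

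Of 18 other WAP-domain genes listed, 13 were in the table and 4 were tested. Of these, 0 were called higher by limma (0 also at an unadjusted p under 0.05) and 2 lower. Among all genes tested, 7.24% were called higher and 18.7% lower. With only 4 genes tested, nothing is read from these counts. The authors' deposited table marks 2 of the untested ones, Wfdc15a and Eppin, as up; both were listed at 0 FPKM in every MCD library and averaged 0.226 and 0.104 FPKM in the limonin group. Wfdc3 was called lower, at 5.31 ± 2.56 FPKM in MCD and 1.86 ± 0.837 in limonin livers (log2 fold change -1.10 ± 0.25). It was lower than every MCD liver in 5 of 6 limonin livers. Wfdc1, also called ps20, was lower at 4.37 ± 0.682 against 7.18 ± 1.36 FPKM (log2 fold change -0.60 ± 0.13), likewise with 5 of 6 limonin livers below every MCD liver. Both were called under each library left out. The list's median log2 fold change was -0.75, against -0.07 over all genes tested.

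Wfdc12, which lies beside Wfdc15b, and Wfdc18, which lies between Wfdc17 and Wfdc21, were not called but were uneven among limonin livers. Wfdc12 ranged from 4.85 to 9.26 FPKM in the MCD group and measured 17.6, 2.53, 12.0, 3.90, 0.113 and 0.122 FPKM in limonin 1 to 6. Limonin 1 and 3 lay above the MCD range and the other 4 limonin livers below it. Its log2 fold change was -0.89 ± 0.75 and became 0.0583 without limonin 5 and limonin 6. Wfdc18 measured 6.95, 0.338, 1.65, 1.33, 0.0478 and 0.0405 FPKM in limonin 1 to 6 and 0.466 to 4.22 FPKM in the MCD group, with a log2 fold change of -0.33 ± 0.58, which became 0.155 without limonin 5 and limonin 6. Both were lowest in limonin 5 and limonin 6 and highest in limonin 1. The untested genes of the list had means of at most 0.489 FPKM.

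**Figure D2:**
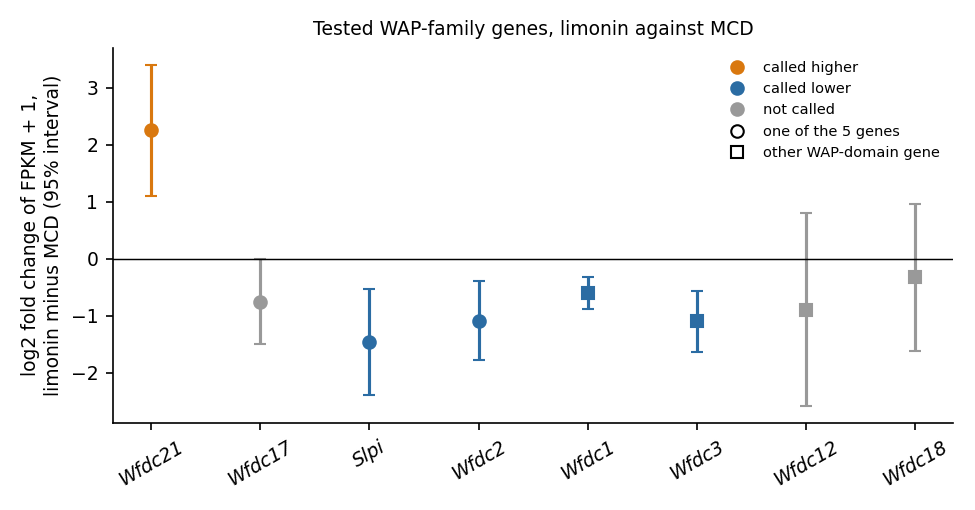
Log2 fold change of FPKM + 1, limonin minus MCD, for the 4 tested members (circles) and the 4 other tested WAP-domain genes (squares), with bars for the 95% interval from limma (5 MCD and 6 limonin livers) and colours for the call at an adjusted p under 0.05. Wfdc21 is at 2.26 and the 7 others are below 0, with the intervals of Wfdc12 and Wfdc18 crossing 0.

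The tested genome neighbours of Wfdc21 were not called. Wfdc18, 35.6 kb away on the side of Wfdc17, had a log2 fold change of -0.33 ± 0.58, and Heatr6, 1.05 kb beyond the other end of Wfdc21, measured 1.63 ± 0.211 and 1.44 ± 0.301 FPKM (log2 fold change -0.11 ± 0.11). On the other side of Wfdc17, at 39.3 kb, the chemokine gene Ccl4 was called lower, from 4.06 ± 0.933 to 1.37 ± 0.906 FPKM. On chromosome 2, the tested neighbours outside the family were Sdc4 beside Slpi, at 46.4 ± 2.33 FPKM in the MCD group and 49.2 ± 5.33 in the limonin group, and Pigt beside Wfdc2, at 12.9 ± 1.10 and 14.1 ± 3.50 FPKM. Neither was called.

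Transcripts of neutrophil and mast cell serine proteases, among which Slpi inhibits elastase and cathepsin G, were near 0. Of 8 such genes, 7 were in the table and 0 reached the filter, with means of at most 0.233 FPKM. Elane, neutrophil elastase, averaged 0.0926 FPKM in the MCD group and 0.105 in the limonin group. Prtn3, proteinase 3, averaged 0.101 and 0.343 FPKM. Ctsg, cathepsin G, was above 0 in MCD 2 alone and averaged 0.00828 FPKM in the MCD group. These genes are transcribed mainly in bone marrow precursors, so their mRNA in liver does not measure the protein carried by neutrophils. Grn encodes progranulin, which Slpi protects from elastase. It was called lower, with 89.3 ± 16.5 FPKM in the MCD group and 63.3 ± 8.90 in the limonin group (log2 fold change -0.48 ± 0.13), a call that was lost without MCD 1, MCD 2 or MCD 5 and after median-ratio scaling.

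Other secreted antimicrobial genes were mostly not called. Of 18 listed, 12 were tested, and limma called 0 higher (0 also at an unadjusted p under 0.05) and 3 lower (Lyz2, Hamp and S100a9), beside 18.7% lower among all genes tested, so the share is near the background. The authors' deposited table marks Bpi, which was not tested here, as up, with means of 0.00547 FPKM in MCD and 0.113 in limonin livers. The list's median log2 fold change was -0.42, against -0.07 over all genes tested. The iron hormone hepcidin, Hamp, dropped by 1.02 ± 0.33 on the log2 scale, with means of 3400 ± 950 FPKM in MCD and 1818 ± 946 in limonin livers. Lyz2, lysozyme of macrophages, fell from a mean of 141 to 50.4 FPKM, and S100a9, a calprotectin subunit of neutrophils and monocytes, from 9.22 to 3.08 FPKM. Rnase4, a secreted ribonuclease of hepatocytes, measured 348 ± 67.5 and 391 ± 33.3 FPKM and was not called. Hamp2, the second hepcidin gene, measured 276 ± 134 and 249 ± 333 FPKM and was not called, but was called lower without both limonin 5 and limonin 6 (log2 fold change -1.60), the former being its highest liver at 917.3 FPKM. The count of 3 was 0 when MCD 2, limonin 2 or limonin 4 was left out, 1 without MCD 1, limonin 6 or both MCD 4 and MCD 5, and 0 after scaling to equal summed FPKM or without a filter. The call of Hamp was lost in 7 of the 11 fits that each left out 1 library, without both MCD 4 and MCD 5 (-1.22), and after median-ratio scaling or quantile normalization. Those of Lyz2 and S100a9 were lost without both limonin 5 and limonin 6 (-1.20 and -0.97), and that of S100a9 also without both MCD 4 and MCD 5 (-0.82).

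Among acute phase genes, those of fibrinogen and several other plasma proteins rose. Of 26 listed and tested, 9 were called higher (beside 7.24% of all genes tested), 2 lower and 15 were not called, with a median log2 fold change of 0.56 against -0.07 over all genes tested. Fga, the fibrinogen alpha chain, measured 297 ± 44.5 FPKM in MCD and 887 ± 625.4 in limonin livers, a log2 rise of 1.38 ± 0.32. Itih4, an inter-alpha-trypsin inhibitor heavy chain, rose by 1.35 ± 0.34 (203 ± 35.1 against 599 ± 425 FPKM). Lbp, the lipopolysaccharide-binding protein, rose by 1.04 ± 0.24 (6.27 ± 2.20 against 13.9 ± 4.76 FPKM). Fga, Itih4 and Lbp were higher than every MCD liver in 6 of 6 limonin livers, as were 2.97% of all genes tested. Apcs, serum amyloid P, rose by 0.59 ± 0.19 (851 ± 269 against 1244 ± 169 FPKM), a call that was lost in 5 of the 11 fits that each left out 1 library and without both limonin 5 and limonin 6 (0.56). Fgb, Fgg, Crp, Serpina3n and C3 were the other genes called higher, and Cd14 and Il1rn were those called lower. Fgb, Fgg and Serpina3n also had every limonin liver above every MCD liver. Apcs, Crp and C3 overlapped between the groups, as did the 15 genes not called. The count of 9 was 5 without MCD 1 or without MCD 2, and the count of 2 lower was 1 when any of MCD 1, MCD 2, MCD 5, limonin 1, limonin 2, limonin 4 or limonin 6 was left out.

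Other acute phase genes were uneven among the limonin livers in the manner of Wfdc21 and were not called by limma. The authors' deposited table marks Saa1 and Saa2 as up, and also Orm1, Mt1 and Mt2, which limma did not call either. Lcn2, lipocalin-2, which starves bacteria of iron, measured 436, 566, 120, 42.1, 48.3 and 29.9 FPKM in limonin 1 to 6 and 30.4 to 138 in the MCD group. Its log2 fold change was 0.56 ± 0.88. Saa1, serum amyloid A, measured 271, 667, 14.9, 4.78, 15.0 and 4.63 FPKM in limonin 1 to 6 and 10.1 to 23.1 in the MCD group. Its log2 fold change was 1.03 ± 1.32. For both genes limonin 1 and 2 stood far above the MCD range and the remaining limonin livers lay within or below it. Saa2 measured 165 and 528 FPKM in limonin 1 and 2 and at most 8.75 in the other limonin livers. Saa3, the form made outside hepatocytes, stayed between group means of 4.01 and 3.11 FPKM and was not called. Wfdc21 differed from Lcn2, Saa1 and Saa2 in that limonin 3 to 6 also lay above every MCD liver.

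Within the limonin group, the variation of Wfdc21 was compared with that of 8 acute phase genes, which does not use the contrast between the groups. Over the 6 limonin livers, 24 relations of log2(FPKM + 1) were computed for Wfdc21, Wfdc17 and Slpi, with exact permutation tests over all 720 pairings, two-sided, and Benjamini-Hochberg adjustment. Of these, 0 passed an adjusted p of 0.05, and 4 had an unadjusted p under 0.05 by the exact test of r. The exact tests could not give a p below 0.00278, so a single relation among 24 could not have passed. The highest values were those of Wfdc21. With Hp, haptoglobin, Pearson's r was 0.932 (exact p = 0.0111, adjusted p = 0.111) and Spearman's rho was 0.886 (exact p = 0.0333, adjusted p = 0.267). With Orm1, orosomucoid, r was 0.925 (exact p = 0.00972, adjusted p = 0.111) and rho was 0.943 (exact p = 0.0167, adjusted p = 0.200). With Lcn2, r was 0.905 (exact p = 0.0139, adjusted p = 0.111) and rho was 0.771 (exact p = 0.103, adjusted p = 0.617). Without limonin 1 and 2, the livers farthest from the median of Wfdc21, r over the remaining 4 was 0.993 for Hp, 0.960 for Orm1 and 0.799 for Lcn2. Fga, Itih4 and Lbp lay above every MCD liver in 6 of 6 limonin livers, as did 2.97% of all genes tested. With Wfdc21, Fga had r = 0.363 (exact p = 0.496, adjusted p = 0.829) and rho = 0.600 (adjusted p = 0.829). Itih4 had r = 0.6945 (exact p = 0.111, adjusted p = 0.444) and rho = 0.943 (exact p = 0.0167, adjusted p = 0.200). Lbp had r = 0.502 (exact p = 0.307, adjusted p = 0.829) and rho = 0.543 (adjusted p = 0.892). Without limonin 1 and 2, r was 0.655 for Fga, 0.967 for Itih4 and 0.795 for Lbp. The MCD livers did not show the same order for Orm1 and Lcn2. Among them, Wfdc21 was lowest in MCD 1 and MCD 5 (8.22 and 8.97 FPKM). Orm1 (811 and 892 FPKM) and Lcn2 (138 and 122 FPKM) were highest in those livers. Hp, like Wfdc21, was lowest in MCD 1 (1773 FPKM).

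**Figure D3:**
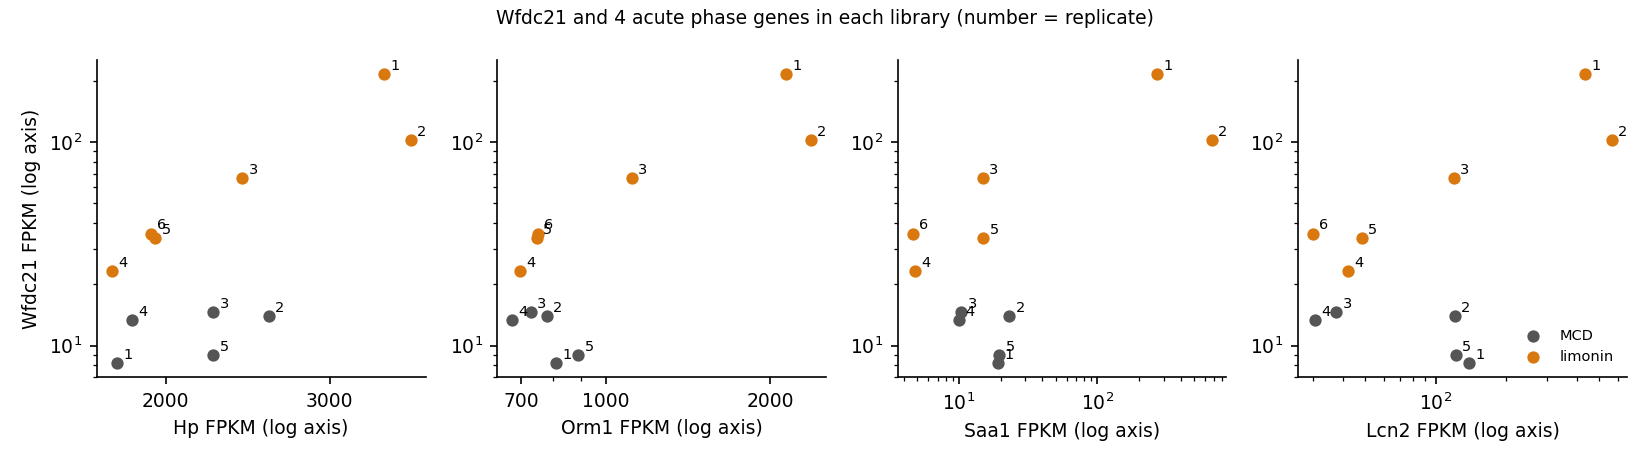
Wfdc21 (vertical, FPKM on a log axis) against Hp, Orm1, Saa1 and Lcn2 (horizontal, FPKM on log axes) in each library, with 1 point per mouse numbered by replicate (MCD n = 5, limonin n = 6). Limonin 1, 2 and 3 are the 3 highest of the limonin livers in Wfdc21, Hp, Orm1 and Lcn2, while the MCD livers vary in Lcn2 from 30.4 to 138 FPKM with Wfdc21 at 14.6 FPKM or less.

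No relation with the acute phase genes passed for the other members. Over the limonin livers, r with the 8 acute phase genes lay between -0.459 and 0.391 for Wfdc17 and between -0.185 and 0.431 for Slpi, with adjusted p of at least 0.829 by the exact test. Without the 2 livers farthest from each gene's median, r lay between -0.913 and -0.295 for Wfdc17. For Slpi it then lay between -0.989 and -0.933. An r over 4 livers can thus change sign, and nothing is read from it, for Wfdc21 either. The 3 pairs among Wfdc21, Wfdc17 and Slpi did not pass either: r was 0.559 for Wfdc21 and Wfdc17, 0.597 for Wfdc21 and Slpi and 0.746 for Wfdc17 and Slpi (exact, adjusted p = 0.264 for each, with 0 at an unadjusted p under 0.05). Wfdc2 and Wfdc15b had means under 1 FPKM in the limonin group and were left out of these relations.

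Genes of the signalling that drives hepatic acute phase transcription were also counted. Of 23 listed, 19 were tested, with 2 called higher (Il6ra and Lifr, receptor subunits for interleukin-6 and leukaemia inhibitory factor), 9 lower and 8 not called, beside 7.24% higher and 18.7% lower among all genes tested, where lower calls also outnumbered higher ones. The list's median log2 fold change was -0.34, against -0.07 over all genes tested. Cebpb, a C/EBP transcription factor, fell by 0.41 ± 0.12 on the log2 scale (141 ± 11.4 FPKM in MCD, 107 ± 17.8 in limonin livers). Nfkbia, the inhibitor and target of NF-kappaB, fell by 0.49 ± 0.14 (30.2 ± 4.30 against 21.5 ± 4.22 FPKM). Rela, an NF-kappaB subunit, fell by 0.44 ± 0.14 (20.3 ± 3.14 against 14.9 ± 3.55 FPKM). Larger falls were those of Nfkb2 (log2 fold change -1.12 ± 0.16), Relb (-1.12 ± 0.19), Bcl3 (-0.98 ± 0.17) and Cebpd (-0.85 ± 0.17). In each of them every limonin liver lay below every MCD liver, as in 8.33% of all genes tested. Myd88 (-0.34 ± 0.10) and Nfkb1 (-0.33 ± 0.11) were the remaining genes called lower. The calls of Cebpb, Nfkbia and Rela were lost after median-ratio scaling, under which 4 genes of the list were called lower, and Rela also lost its call in 8 of the 11 fits that each left out 1 library. Without both MCD 4 and MCD 5, Cebpb (-0.40) and Rela (-0.47) were not called, and without both limonin 5 and limonin 6 neither was Rela (-0.35). The count of 9 was 4 without MCD 2 and 5 without limonin 4 or without both MCD 4 and MCD 5, and the 2 higher calls were 0 without MCD 1, MCD 2, MCD 5 or limonin 4 and 1 without limonin 1. Stat3 had a log2 fold change of 0.28 ± 0.20 and Socs3, a STAT3 target, of -0.40 ± 0.17, and neither was called.

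Most tested markers of recruited macrophages, neutrophils, cholangiocytes and stellate cells were called lower in the limonin livers, beside 18.7% of all genes tested. Kupffer cell markers were not. In whole liver, fewer cells of a type and less RNA per cell cannot be told apart. Summed FPKM of 8 recruited macrophage markers ranged from 146 to 552 in the MCD group and from 76.4 to 161 in the limonin group, and 5 of the 6 tested were called lower. Summed neutrophil markers ranged from 5.84 to 38.9 and from 4.42 to 9.07 FPKM, with 3 of 4 tested called lower and 5 of the 9 markers under 1 FPKM in every library. Summed cholangiocyte (bile duct) markers ranged from 17.6 to 50.9 and from 5.73 to 17.9 FPKM, with 5 of 5 tested called lower. Summed stellate cell and fibroblast markers ranged from 56.1 to 106 and from 37.3 to 64.4 FPKM, with 5 of 6 tested called lower. Summed Kupffer cell markers ranged from 21.6 to 159 and from 48.5 to 78.4 FPKM, with 0 of 5 tested called by limma (0 also at an unadjusted p under 0.05). The part of these markers in the lower values of Slpi, Wfdc2 and Wfdc15b was not tested. Of the 9 hepatocyte markers, 3 were called higher and 0 lower, beside 7.24% higher among all genes tested. Of the 5 spermatid markers, 5 were called higher. Mesothelial, adipocyte, pancreatic and epididymal markers were at low levels in both groups: mesothelial markers summed to at most 4.68 FPKM, adipocyte markers to at most 0.556, pancreatic markers to at most 14.6 and epididymal markers to at most 4.43.

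The variation of the 5 genes from animal to animal was also set beside that of cell type markers. To use the 11 libraries without the contrast, each group's mean was removed and libraries were permuted within groups (100000 permutations), a test chosen after seeing the data. Among 105 relations of the 5 genes with each other, with 11 marker sums and with 8 acute phase genes, 1 passed an adjusted p of 0.05. It joined Wfdc17 to the summed Kupffer cell markers, with r = 0.950 (permutation p = 0.00011, adjusted p = 0.0116) and rho = 0.891 (permutation p = 0.00243, adjusted p = 0.125). Without MCD 5 and MCD 1, the libraries farthest from the median, r was 0.953. The pattern is plain in the values: MCD 5 was highest in both (36.6 FPKM of Wfdc17, 159 FPKM of markers), MCD 1 was lowest of its group in both (7.80 and 21.6 FPKM), and limonin 1 was highest of its group in both (16.7 and 78.4 FPKM). Cd5l, 1 of the 6 markers, weighed heavily in the sum. It averaged 43.7 FPKM in the MCD and 29.6 in the limonin group, beside median sums of 90.7 and 55.4.

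The other relations missed the threshold. Wfdc21 with Hp had r = 0.870 (permutation p = 0.00332, adjusted p = 0.0998) and rho = 0.855 (adjusted p = 0.125), and with Orm1 r = 0.848 (permutation p = 0.0156, adjusted p = 0.248) and rho = 0.382 (adjusted p = 0.778). Without limonin 1 and limonin 4, r was 0.836 and 0.748. With Itih4, Wfdc21 had r = 0.703 (permutation p = 0.0685, adjusted p = 0.360) and rho = 0.855 (adjusted p = 0.125), and r was 0.914 without the same libraries. Slpi with the summed recruited macrophage markers had r = 0.843 (permutation p = 0.00171, adjusted p = 0.0898) and rho = 0.782 (adjusted p = 0.249). Slpi with Wfdc2 had r = 0.806 (permutation p = 0.0038, adjusted p = 0.0998) and rho = 0.855 (adjusted p = 0.125). Without limonin 1 and limonin 3, r for these 2 relations of Slpi was 0.891 and 0.885. Wfdc15b with the summed recruited macrophage markers had r = 0.832 (permutation p = 0.0149, adjusted p = 0.248) and rho = 0.345 (adjusted p = 0.778), and r was 0.781 without MCD 1 and MCD 4. Wfdc2 with the same markers had r = 0.714 (permutation, adjusted p = 0.352). Wfdc15b with the summed cholangiocyte markers had r = 0.694 (permutation p = 0.0165, adjusted p = 0.248) and rho = 0.636 (adjusted p = 0.517), and r fell to 0.460 without MCD 1 and MCD 4. Wfdc21 had r = 0.224 with Kupffer cell, -0.07 with recruited macrophage, 0.118 with neutrophil and -0.08 with cholangiocyte markers, with adjusted p of at least 0.577 by permutation. Its r with the summed hepatocyte markers was -0.767 (permutation, adjusted p = 0.274). Wfdc17 with the summed neutrophil markers had r = 0.550 (permutation, adjusted p = 0.584) and rho = 0.818 (adjusted p = 0.184). With the summed recruited macrophage markers it had r = 0.234 (permutation, adjusted p = 0.868) and rho = 0.709 (adjusted p = 0.3645).

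**Figure D4:**
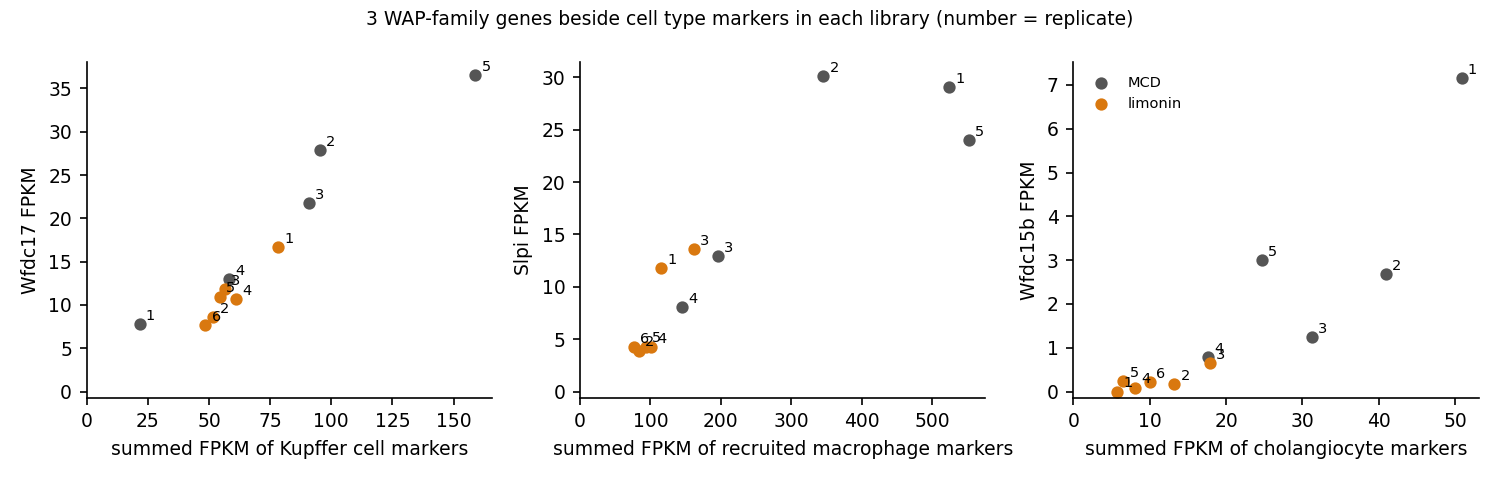
FPKM of Wfdc17, Slpi and Wfdc15b (vertical) against the summed FPKM of Kupffer cell, recruited macrophage and cholangiocyte markers (horizontal), on linear axes, with 1 point per mouse numbered by replicate (MCD n = 5, limonin n = 6). Wfdc17 climbs with the Kupffer cell markers from MCD 1 (21.6 FPKM of markers) to MCD 5 (159). The limonin livers lie at or below 0.654 FPKM of Wfdc15b. For Slpi, limonin 2, 4, 5 and 6 lie at or below 4.29 FPKM. Limonin 1 and 3 lie at 11.8 and 13.6 FPKM of Slpi, within the MCD range.

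The genes whose patterns were most like those of the members were found by Pearson's r of log2(FPKM + 1) over the 11 libraries after removal of the group means, among 9484 named genes, as a description. For Wfdc21 they were Cyb5rl (0.953), Chst13 (0.947), Tbc1d8 (0.924), Abca2 (0.909) and Proser2 (0.906). None of these 5 was called between the groups, and their log2 fold changes lay between -0.14 and 0.13. They were picked for the highest r among 9484 genes, so their likeness to Wfdc21 comes from that choice and was not tested. For Wfdc17 they were Ccl6 (0.959), a chemokine of myeloid cells, Cd5l (0.957), a Kupffer cell product that is also in the marker sum, and Sdc3 (0.914), a syndecan. For Slpi they were Cc2d1b (0.969), Oaz2 (0.966) and Dmpk (0.957), each called lower. For Wfdc2 they were Nenf (0.955), Tmsb10 (0.954) and Cryab (0.946), each called lower, and Tmsb10, an actin-binding thymosin, fell from 34.8 ± 14.4 to 9.54 ± 3.00 FPKM. For Wfdc15b they were Plk1 (0.966), a mitotic kinase, Nrep (0.957) and the condensin subunit Ncapd2 (0.940), each called lower.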

How the data were processed

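Liver poly(A) RNA of 5 MCD and 6 limonin mice was sequenced, with 1 library per sample, and p-values measure the spread between these samples. Per the labels' protocols, second strands were marked with dUTP. Use of the strand in counting was not given in the sources used here. Per the submitters' processing notes, the tools were StringTie 1.3.4d, HISAT2 2.0.4 and cutadapt 1.9. Those notes name GRCh38, which is human, while the table carries mouse gene identifiers. The authors deposited FPKM per gene and library, and beside them a fold change (the ratio of the groups' means) with its log2, as well as p-value and q-value columns, per the file headers. Which test the authors ran was not given in the sources used here.

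FPKM were analysed as log2(FPKM + 1), which understates changes of low genes, in the 10489 of 31280 genes that reached 1 FPKM in 5 or more libraries. The main test was limma's (version 3.58.1, R 4.3.3, trend and robust options), two-sided, with p-values adjusted by Benjamini-Hochberg across these genes and called below 0.05. The procedure was tested on simulated data. FPKM hold no counts, so fragments were inferred in genes with 1 transcript by reading the commonest small value of FPKM times transcript length as 1 fragment. Counts inferred for genes with several transcripts depend on the length used. No counting intervals are given. Correlations used scipy 1.17.1. Sequences and coordinates are from GENCODE M21 on GRCm38. The search for cores translated each coding sequence.

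The members and the gene lists were chosen with earlier results of these data known. Genes were named by rule: the 5 members, the 3 most highly expressed genes of each list, other WAP-domain genes with a mean of at least 1 FPKM, a set fixed by name, the genes most like each member, and the nearest tested neighbours. Wfdc18, Lyz2, S100a9 and the other called genes of the lists were named after their values were seen. The alternatives were pseudocounts of 0.1 and 0.01, a filter at 5 FPKM or none, 3 other scalings, no trend, library weights, a block for the replicate number, each library left out, 2 pairs of libraries left out, and the authors' deposited calls.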

Additional observations from a re-analysis of the deposited data

Results flagged for a closer look

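Of 62 groups of values (35 named genes, each in the MCD and the limonin group where measured), 8 had a library whose distance from its nearest neighbour exceeded the 95% limit of Dixon's test, and chance gives about 1 in 20. These 8 were all in the limonin group. Limonin 2 stood apart in 4 plasma protein genes: Fga at 2141 FPKM (other limonin livers 473.6 to 800.5), Hpx at 10030 (3673 to 5970), Itih4 at 1433 (318.1 to 605) and Saa2 at 528.2 (1.885 to 165). Limonin 3 stood apart in Rela at 21.97 FPKM (12.77 to 14.74) and in Wfdc3 at 3.441 FPKM (1.103 to 1.82). Limonin 5 stood apart in Hamp2 at 917.3 FPKM (38.97 to 231.9). Limonin 1 stood apart in Wfdc18 at 6.945 FPKM (0.0405 to 1.65). None of the 5 members had such a library in either group, although limonin 1 held the highest Wfdc21 value.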

How the results depend on the processing

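The direction of the 5 members did not reverse under any alternative run. Wfdc21 ranged from 1.89 to 2.75 on the log2 scale and lost its call with the replicate number as a block (2.40) and without both MCD 4 and MCD 5. Members called higher (1) were then 0, and 1 whichever single library was left out. Members called lower (2) were 1 without a filter, 1 with a filter at 5 FPKM, 0 with the block, 0 without both limonin 5 and limonin 6, and 0 to 2 with single libraries left out. Genes called higher (759) were 412 without a filter, 1829 after median-ratio scaling, 1813 after quantile normalization, 363 with the block, 1347 without both limonin 5 and limonin 6, 486 without both MCD 4 and MCD 5, 1168 in the authors' deposited table, and 328 to 1097 with single libraries left out. Genes called lower (1957) were 900 with a filter at 5 FPKM, 1112 after scaling to equal summed FPKM, 893 with the block, and 1080 to 2134 with single libraries left out. Higher genes made up 49.6% of calls with equal summed FPKM and 52.9% under quantile normalization. The Wfdc12 log2 fold change was 0.0583, and that of Wfdc18 0.155, without both limonin 5 and limonin 6. The cause was not tested, except that fewer genes or fewer libraries entered some fits. Samples with the same number correlated by -0.235 to 0.204 in their deviations from the group means. For 1 of 5 MCD livers, the best match among limonin 1 to 5 was the liver of the same number. This check cannot show whether same-numbered samples share more than a number, and limonin 6 had no partner in the block. The exact tests within the limonin group could hardly pass at this number of livers, so their alternatives show nothing about stability. Depth limits Wfdc2 and Wfdc15b, whose limonin values rest on at most 20 and 7 fragments.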
